A study of Mus musculus with 4 samples.

Results

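Proglucagon L cells are the rare endocrine cells of the intestinal epithelium whose leading hormone transcript is Gcg, and 75 of 29731 small-intestinal crypt cells fell under that description. A cell was counted when Gcg reached 20 CP10K or more (UMIs per 10000 UMIs of that cell), stood above Gip, Cck, Sst, Ghrl and Nts, and Neurog3 had fewer than 2 UMIs. A UMI (unique molecular identifier) tags 1 captured transcript, so that PCR copies are not counted again. The cells came from 4 mouse libraries prepared from small-intestinal crypts that EDTA had released, using a 10x Genomics 3′ kit, 2 labelled 2D and 2 labelled 0D. The series design speaks of mice before and after sleep deprivation. 0D is read here as before and 2D as after, which the labels do not spell out. No strain, sex, age or further treatment is stated in the labels, nor whether the libraries come from different animals. P-values therefore measure only the spread between libraries, which may be technical.

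L cells release hormones into the blood when food reaches the gut lumen. Gcg encodes proglucagon, which the prohormone convertase encoded by Pcsk1 cuts into the glucagon-like peptides, and Pyy encodes peptide YY, a hormone that slows transit and reduces feeding. Enteroendocrine cells arise from Neurog3-positive progenitors in the crypt, and the same cell can carry transcripts of several hormones.

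The promoters of Gcg, Pyy and Cck are shown because transcripts of these 3 hormones were counted together in most of the 75 cells. Each line gives the 250 bases before the RefSeq transcription start in GRCm38.p6, 5′ to 3′ along the gene, with matches to CANNTG (an E-box, the kind of site that basic helix-loop-helix factors such as Neurod1 bind) and TAAT (a core of many homeodomain sites) in capitals on either strand. For Pyy, which has 2 starts in the RefSeq table, the window of the start listed first is given.
Gcg (chr2:62483654-62483903, strand -): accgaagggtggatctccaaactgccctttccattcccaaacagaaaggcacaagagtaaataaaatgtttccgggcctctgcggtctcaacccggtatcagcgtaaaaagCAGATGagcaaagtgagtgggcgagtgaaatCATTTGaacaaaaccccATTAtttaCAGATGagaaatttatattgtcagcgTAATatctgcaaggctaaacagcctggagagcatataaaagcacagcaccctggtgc
Pyy (chr11:102107833-102108082, strand -): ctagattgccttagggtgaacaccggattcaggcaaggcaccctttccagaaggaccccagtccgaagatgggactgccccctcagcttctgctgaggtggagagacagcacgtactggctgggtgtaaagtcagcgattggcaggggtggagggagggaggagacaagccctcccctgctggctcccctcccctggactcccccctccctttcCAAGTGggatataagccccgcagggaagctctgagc
Cck (chr9:121495695-121495944, strand -): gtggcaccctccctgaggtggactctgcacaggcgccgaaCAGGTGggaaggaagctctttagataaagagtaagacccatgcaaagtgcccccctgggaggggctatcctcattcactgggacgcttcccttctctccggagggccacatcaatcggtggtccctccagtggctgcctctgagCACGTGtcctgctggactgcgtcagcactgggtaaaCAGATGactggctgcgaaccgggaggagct
The Gcg window held 3 matches to CANNTG and 2 to TAAT, the Pyy window 1 and 0, and the Cck window 3 and 0. CANNTG occurred in 66.2% and TAAT in 54.9% of 32851 promoter windows of the same length, so these letters are common. The matches describe sequence only.

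The 4 libraries held 23 and 16 L cells in 2D-1 and 2D-2, against 16 and 20 in 0D-1 and 0D-2. Hormone cells are cells in which the highest of the 6 hormone transcripts reached 20 CP10K under the same Neurog3 limit, 1152 in all. Cells with no hormone call are all the rest, so they include cells at that hormone level which the Neurog3 limit set aside. Without that limit, hormone cells led by another hormone than Gcg numbered 337 and 391 in 2D and 214 and 243 in 0D. With it they numbered 306 and 359 in 2D and 189 and 223 in 0D. The summed UMIs of the L cells were 150799 and 84187 in the 2D libraries and 113682 and 137859 in the 0D libraries, the depth behind every summed level given here. The median L cell had 6792 and 4371 UMIs in 2D-1 and 2D-2, and 5916.5 and 6585.5 in 0D-1 and 0D-2. That is below the median of cells with no hormone call, which was 11735.5 and 9558 UMIs in 2D and 12217 and 13537 in 0D. Single large cells weighed on the sums, since the largest held 7.37% and 21.3% of all L cell UMIs in 2D-1 and 2D-2 and 29.1% and 16% in 0D-1 and 0D-2. Pairs of libraries shared 13 to 16 cell barcodes. Over 2422 tested genes, 2D-1 and 2D-2 differed by a root mean square of 0.71 on the log2 scale, and 0D-1 and 0D-2 by 0.58.

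**Figure D1:**
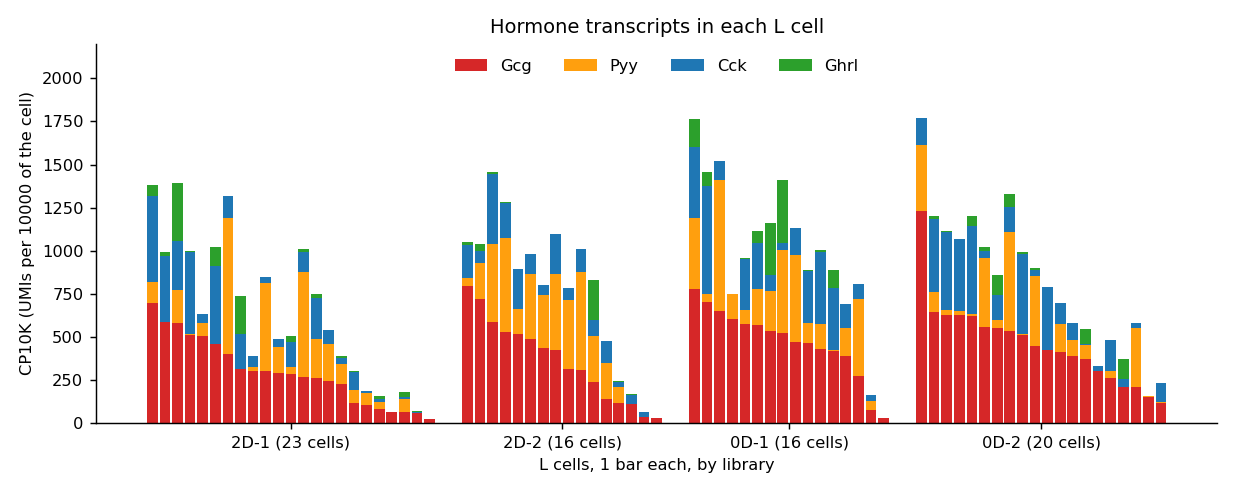
Hormone transcripts in each of the 75 L cells, as CP10K of Gcg, Pyy, Cck and Ghrl stacked in 1 bar per cell, with cells ordered by Gcg within each library and 2D libraries on the left. Most bars hold Pyy and Cck stacked on Gcg, and 12 of the 75 cells have no Pyy.

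Gcg made up a median of 281 and 367 CP10K in the L cells of 2D-1 and 2D-2, against 494 and 434 CP10K in 0D-1 and 0D-2. The lowest and highest single cells had 20.3 and 698 CP10K in 2D-1, 28.1 and 796 in 2D-2, 26.2 and 775 in 0D-1, and 116 and 1228 in 0D-2. The cells were chosen by Gcg, the other 5 hormones and Neurog3, so these values are a description with no test. The plot of hormones per cell shows that the spread among cells of 1 library exceeded the distance between library medians. Just below the threshold, the highest Gcg-led cells had 16.4 and 12.5 CP10K in 2D-1 and 2D-2 and 12.7 and 11.1 CP10K in 0D-1 and 0D-2. A Gcg UMI was found in 4.42% and 2.25% of cells with no hormone call in 2D, and in 2.18% and 3.93% in 0D. This is a share of cells and not a level, in a class from which the rule had taken the Gcg-led cells. Whether these UMIs were free RNA was not tested.

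Pyy was counted in most of these cells, although the rule did not use it. It had at least 1 UMI in 63 of the 75 cells (84%) and at least 20 CP10K in 56 of them (74.7%). Among cells with no hormone call, 1.66% and 0.762% had a Pyy UMI in the 2D libraries and 0.434% and 1.02% in the 0D libraries, at a greater median depth than the L cells. Pyy exceeded Gcg itself in 15 cells and was at 0 in 12. The shares at 20 CP10K or more were 16 of 23 and 13 of 16 cells in 2D-1 and 2D-2, against 14 of 16 and 13 of 20 cells in 0D-1 and 0D-2.

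Cck, the hormone of I cells that acts on the gall bladder and pancreas, reached 20 CP10K in 64 of the 75 cells (85.3%). Sct, which encodes secretin, did so in 56 (74.7%), and Ghrl, which encodes ghrelin, in 23 (30.7%). The commonest combination was Gcg with Pyy and Cck, in 36 cells, followed by Gcg with Pyy, Cck and Ghrl in 15. Gcg without any of Pyy, Cck or Ghrl at 20 CP10K was found in 6 cells, whose median Gcg was 43.6 CP10K. The 36 and 15 cells had medians of 403 and 554 CP10K. The rule holds Cck, Ghrl, Nts, Gip and Sst below Gcg but sets no lower bound, and Nts, Gip and Sst reached 20 CP10K in 1, 1 and 0 of the cells.

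The label was set beside markers of endocrine cells in general. Other hormone cells carry these too and were not counted, so the count describes endocrine and not L cell identity. The planned endocrine markers were Chga, Chgb, Neurod1, Pax6, Scg3 and Cpe, and the 8 genes used leave out Pax6 and Scg3. Pyy, Neurod1, Isl1, Cpe and Scg2 among the 8 are also leading genes of these same cells, as described below. Of 8 endocrine genes outside the rule (Pyy, Sct, Chgb, Chga, Neurod1, Isl1, Cpe and Scg2), 71 of the 75 L cells had UMIs of 6 or more of the genes, a limit set after seeing the data. Among the deeper cells with no hormone call, 212 of 28579 (0.742%) reached that number. That class includes cells set aside for Neurog3, and how many of the 212 were such cells was not counted. A UMI of 1 such gene alone says less, since Sct had one in 58.5% and 64.2% of cells with no hormone call in 2D and in 46.4% and 52.7% in 0D. The exceptions included 1 L cell with none of the 8 and 1 cell with 3. Tph1, the enzyme that starts serotonin synthesis and marks enterochromaffin cells, had 0 UMIs among the 486527 of L cells, which allows a level of up to 6.17 CPM (counts per 1000000 UMIs of the summed cells, from a floor of 3 counts over all L cells, counting error only). Lmx1a, a transcription factor of enterochromaffin cells, was at 0 as well. Tph1 stood at 158 and 60.7 CPM in other hormone cells of 2D and at 72.1 and 104 CPM in those of 0D. Ddc, an enzyme shared by several amine-producing cells, was present in L cells at 491 and 321 CPM in 2D and 457 and 522 CPM in 0D. Tph1 and Lmx1a were the 2 of 7 enterochromaffin list genes at 0 UMIs. The list summed to 1008 and 701 CPM in L cells of 2D and 976 and 1059 CPM in those of 0D. Other hormone cells had 1691 and 1048 CPM in 2D and 1012 and 1318 CPM in 0D. Cyp4b1 of this list had 220 CPM in L cells against 55.7 CPM in other hormone cells. The summed tuft cell markers were at 0 in all libraries, and the immune markers came to 0 CPM in both 2D libraries and 17.6 and 7.25 CPM in the 0D libraries.

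Most Gcg-positive cells were not led by Gcg. Cells with Gcg at 20 CP10K or more, whichever hormone led, numbered 82 and 77 in 2D-1 and 2D-2 and 45 and 69 in 0D-1 and 0D-2, which is 273 in all. Cck led 155 of them, Gcg 75, Ghrl 28, Nts 8 and Gip 6, and 1 cell of 2D-2 had a tie for the highest hormone. Both Gcg and Cck were therefore present in L cells and in a larger number of Cck-led cells. In the L cells Gcg summed to 36173 CPM and Cck to 16507 CPM over all libraries, whereas Cck-led cells with Gcg had 14770 and 43089 CPM. UMIs of a 3′ kit come from transcript ends, so levels of different genes were compared without scaling to length.

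**Figure D2:**
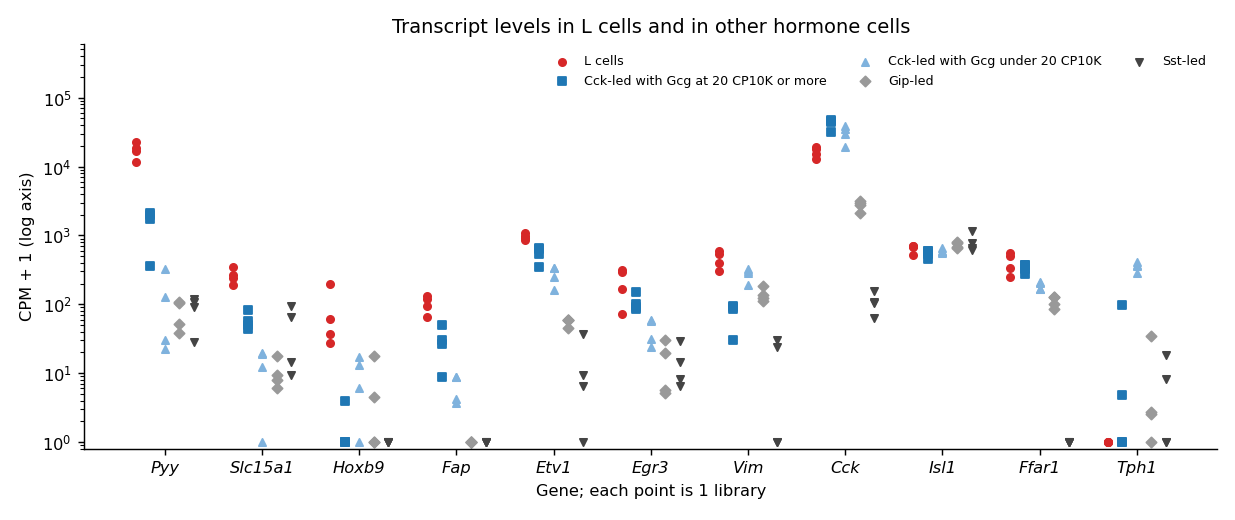
Levels of 11 genes in L cells and in hormone cells led by Cck (with Gcg at 20 CP10K or more, or under it), Gip or Sst, as CPM + 1 on a log axis, with 1 point per library. Every L cell library lies above every library of the other classes shown for Pyy, Slc15a1, Hoxb9, Fap and Etv1. Egr3 and Vim overlap with Cck-led cells, and Tph1 is at 0 in L cells in all 4 libraries. It is also at 0 in some libraries of Gip-led cells, Sst-led cells and Cck-led cells with Gcg. Cells led by Ghrl or Nts are not shown, and those led by Nts overlap with L cells for Pyy, Hoxb9 and Etv1.

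Several genes outside the rule had higher levels in L cells than in the other 1077 hormone cells together. These are descriptions with no test, because the classes were cut from the same cells. Pyy summed to 16741 CPM in L cells and to 475 CPM in other hormone cells, and Cck-led cells with Gcg had 1649 CPM. The 21 cells led by Nts had 4855 CPM, and the 3 of them in 2D-2 had 30849.5 CPM, above every L cell library. Slc15a1, the intestinal transporter of small peptides, had 269 CPM in L cells against 22.8 CPM, with 58.1 CPM in Cck-led cells with Gcg. Etv1, an ETS-family transcription factor, had 964 CPM against 220 CPM, and Cck-led cells with Gcg lay between at 556 CPM. Its lowest L cell library, at 863 CPM, stood above the highest library of the other hormone cells summed together, at 253 CPM. Cells led by Nts had 955 and 745 CPM of Etv1 in 2D and 173 and 765 CPM in 0D, so they overlapped with L cells. Fap, a serine protease of the cell surface, had 103 CPM against 9.65 CPM, with 30.5 CPM in Cck-led cells with Gcg. Vim, an intermediate filament, had 477 CPM against 132 CPM, with 74.7 CPM in Cck-led cells with Gcg and 274 CPM in those without, where its libraries overlapped with those of L cells. Egr3, an immediate early transcription factor, had 216 CPM against 44.1 CPM, and its 103 CPM in Cck-led cells with Gcg came from libraries that also overlapped. Hoxb9, a homeobox gene of posterior identity, had 86.3 CPM against 5.27 CPM, but 27 of its 42 UMIs came from 0D-2. Cells led by Nts had 179 CPM of Hoxb9 in 0D-2 and 0 CPM in the other libraries. Naaladl1, Tmem108, Gchfr, Nudt11, Kcnt1, Map2 and Cyp4b1 completed the 15 leading genes with Gcg and Pyy.

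The 15 leading genes against all other cells overlapped in part with those above. After Pyy and Gcg came Etv1 (964 against 4.54 CPM), the granule protein Scg2 (1264 against 14.2 CPM), Cck (16507 against 312 CPM) and the carboxypeptidase Cpe, which trims prohormones (1591 against 24.9 CPM). Ffar1, a receptor for long-chain fatty acids, had 432 against 3.07 CPM. Cells led by Nts, which are among those other cells, had 570 CPM of it. The transcription factors Isl1, Neurod1 and Pax6 were in the same set at 664, 921 and 356 CPM, against 20.5, 33.8 and 7.81 CPM. Of the 29656 other cells, 1077 were other hormone cells. In these Isl1 had 763 and 759 CPM in 2D and 683 and 698 CPM in 0D, which overlapped with L cells. Cck, at 15835 and 17472 CPM in 2D and 14779 and 17461 CPM in 0D, and Pax6 overlapped too. Neurod1, Scg2 and Cpe lay below every L cell library there. Scgn, Slc15a1, Sphkap, Peg3 and Fam183b made up the rest.

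Receptors and transporters through which L cells are known to sense nutrients differed widely in level, and 6 of the 20 listed had 0 UMIs in L cells. Ffar1 had 497 and 249 CPM in L cells of 2D and 334 and 551 CPM in those of 0D, so the groups overlapped. Gpr119, a receptor for lipid amides, had 26.5 and 47.5 CPM in 2D against 79.2 and 109 CPM in 0D. It was too low to be tested between groups in L cells alone. Ffar2 and Ffar3, receptors for short-chain fatty acids, averaged 125 and 59.6 CPM over all L cells, Ffar4 41.1 CPM and the bile acid receptor Gpbar1 22.6 CPM. Slc5a1, the sodium-coupled glucose transporter, averaged 232 CPM. Of the 20 genes in this list 5 could be tested between groups, and 0 had an unadjusted p under 0.05 by edgeR or passed after adjustment by edgeR or DESeq2.

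Gcg and Cck, both used by the rule, varied together among the L cells. Over the 75 cells Spearman's rho between Gcg and Cck was 0.68, with 0.84 and 0.69 in 2D-1 and 2D-2 and 0.40 and 0.67 in 0D-1 and 0D-2. Gcg and Pyy had a rho of 0.33, and Pyy and Cck 0.09. Cells of 1 library share its depth and free RNA, and the Gcg cut bounds the range, so these are descriptions. The rule also holds Cck below Gcg in every cell, which by itself favours a positive correlation of this pair. Pyy has no such limit, so the values of Cck and Pyy are not comparable. Among 3428 genes of at least 50 CPM, the 10 most like Gcg over cells within library were Cck (mean Pearson r 0.72), Cpe (0.70), Sct (0.61), Fars2 (0.59), Ffar1 (0.58), Scg2 (0.56), Sis (0.55), Ubb (0.55), Pyy (0.54) and Atp5e (0.51). Sis, the brush-border sucrase-isomaltase of enterocytes, had UMIs in 18 of 23 and 15 of 16 L cells of 2D and 13 of 16 and 16 of 20 of 0D. Cells with no hormone call had a Sis UMI in 25.1% and 13.0% of cases in 2D and in 25.4% and 25.0% in 0D.

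The first comparison between groups was whether the number of L cells differed. L cells made up 0.327% and 0.200% of cells kept in 2D-1 and 2D-2, with exact binomial 95% intervals of 0.208% to 0.491% and 0.115% to 0.325%. In 0D-1 and 0D-2 they made up 0.211% and 0.280%, with intervals of 0.121% to 0.342% and 0.171% to 0.433%. The group means were 0.264% ± 0.0899 in 2D and 0.246% ± 0.0492 in 0D (SD, n = 2 each). The groups overlapped, and a two-sided exact permutation test gave p = 1, where 0.33 is the smallest p that 2 against 2 libraries allow. The intervals cover counting error only.

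As a share of hormone cells, L cells came to 6.99% and 4.27% in 2D-1 and 2D-2, against 7.80% and 8.23% in 0D-1 and 0D-2. Both 2D values lay below both 0D values, and the means were 5.63% ± 1.93 and 8.02% ± 0.301 (SD, n = 2 each, exact permutation p = 0.33, the smallest possible). The hormone cells led by another hormone made up 4.36% and 4.49% of cells kept in 2D and 2.49% and 3.13% in 0D. Those groups did not overlap either (exact permutation p = 0.33), so the denominator of the share differed between the groups more than the L cell count did. At this number of cells the exact intervals of single libraries overlapped, for example 4.48% to 10.3% in 2D-1 and 4.53% to 12.4% in 0D-1. Counting every cell with Gcg at 20 CP10K or more gave 1.17% and 0.964% of cells kept in 2D and 0.593% and 0.967% in 0D.

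**Figure D3:**
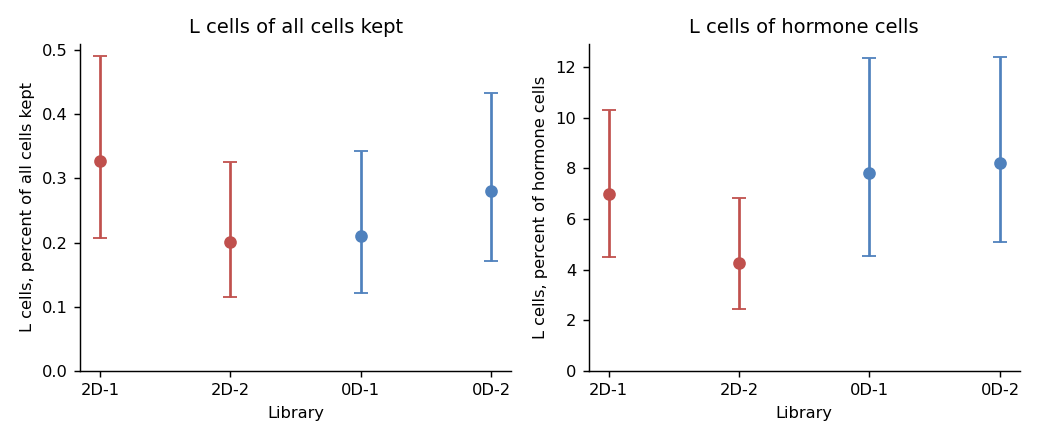
L cells as a percentage of all cells kept (left) and of hormone cells (right) in each library, with exact binomial 95% intervals as bars. The shares of all cells overlap between 2D and 0D, and the shares of hormone cells are 6.99% and 4.27% in 2D against 7.80% and 8.23% in 0D.

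The second comparison was of transcript levels within L cells. The hormones used in the rule are given without a test. Gcg summed to 30942 and 32618 CPM in 2D-1 and 2D-2 against 39426 and 41383 CPM in 0D-1 and 0D-2, and the groups did not overlap. Cck had 15133 and 12757 CPM in 2D and 18015 and 19056 CPM in 0D, again without overlap. Ghrl had 3561 and 1520 CPM in 2D and 5885 and 2597 CPM in 0D, with overlap. Nts had 378 and 0 CPM in 2D and 0 and 43.5 CPM in 0D, and 55 of the 57 UMIs of 2D-1 were in 1 cell. The 24 Gip UMIs of 2D-2 were likewise in 1 cell.

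Pyy did not pass the test. It had 16645 and 22735 CPM in 2D-1 and 2D-2 and 18772 and 11512 CPM in 0D-1 and 0D-2, so the groups overlapped (19690 ± 4307 and 15142 ± 5134 CPM, SD, n = 2 each). The edgeR log2 change was 0.47 ± 0.27 (SE) with an adjusted p of 0.660 by edgeR's quasi-likelihood test. Without 2D-1 it was 0.77 with an edgeR adjusted p of 0.0327, where the lone 2D library is assumed to vary like the 0D libraries, and without 2D-2 it was 0.09. Sct had 4503 and 4395 CPM in 2D and 3237 and 4410 CPM in 0D, with a log2 change of 0.30 ± 0.22 and an edgeR adjusted p of 0.776. The remaining genes of the hormone list, among them Insl5, Tac1, Gal, Ucn3, Iapp and Nmb, were each under 60 CPM in every L cell library. They were not tested between groups in L cells alone.

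Of 2422 genes tested in L cells, 5 passed an adjusted p of 0.05 by edgeR (0.206%), 2 higher (0.0826%) and 3 lower (0.124%) in 2D. An unadjusted p under 0.05 was reached by 8.88% of genes, 5.04% higher and 3.84% lower. DESeq2 called 2 other genes, Reg4 and Dmbt1, and none of the 5. With 1 library left out the log2 changes of all 5 genes kept their sign. In those fits 1 group holds a single library, which is assumed to vary like those of the other group.

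Gm42418 fell in the 2D L cells. This long noncoding RNA gene (chr17:39846958-39848788 on mm10) overlaps the ribosomal RNA gene CT010467.1 and the noncoding gene AY036118 on the other strand in the GENCODE annotation, so its counts are uncertain. It had 5769 and 4146 CPM in 2D-1 and 2D-2, against 15095 and 20071 CPM in 0D-1 and 0D-2. The log2 change was -1.76 ± 0.21 (edgeR adjusted p = 0.0134). It had UMIs in all 75 cells, and the cell with most held at most 11.7% of a library's UMIs. Values outside L cells were similar. Other hormone cells had 4994 and 4812 CPM in 2D and 15753 and 19908 CPM in 0D, and the test of a different change in L cells gave an interaction of 0.02 ± 0.24 on the log2 scale (edgeR adjusted p = 1.00). The adjusted p in L cells was 0.286 by DESeq2.

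Pycard, the adaptor of inflammasomes, and Tmsb4x, which encodes an actin-sequestering peptide, also fell. Pycard had 139 and 83.1 CPM in 2D and 528 and 421 CPM in 0D (log2 change -1.95 ± 0.30, edgeR adjusted p = 0.0279). Tmsb4x had 358 and 380 CPM in 2D and 1311 and 1016 CPM in 0D (log2 change -1.58 ± 0.24, edgeR adjusted p = 0.0279). Most of the 0D signal lay in 1 large cell of each library. The cell of 33106 UMIs in 0D-1, with a doublet score of 0.441, held 80.0% of the Pycard UMIs and 75.2% of those of Tmsb4x, and the cell of 22100 UMIs in 0D-2 held 75.9% and 67.1%. With every cell thinned to at most 5000 UMIs, an alternative chosen after seeing the data, the edgeR adjusted p was 0.430 for Pycard and 0.118 for Tmsb4x, and Gm42418 was the 1 gene that passed. Without cells scoring over 0.25 for doublets the log2 change was -1.58 for Pycard (edgeR adjusted p = 0.407) and -1.74 for Tmsb4x (edgeR adjusted p = 0.151).

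Mptx2, a pentraxin of Paneth cells, and Zg16, a lectin of goblet cell granules, rose in 2D. Mptx2 had 292 and 297 CPM in 2D and 52.8 and 72.5 CPM in 0D (log2 change 2.25 ± 0.33, edgeR adjusted p = 0.0279). Zg16 had 902 and 653 CPM in 2D and 176 and 290 CPM in 0D (log2 change 1.80 ± 0.28, edgeR adjusted p = 0.0279). Neither is an endocrine gene, and both belong to marker lists of other crypt cells. In 2D-2 a cell with a doublet score of 0.332 held 60% of the Mptx2 UMIs, and in 2D-1 a cell with a score of 0.365 held 59.6% of the Zg16 UMIs. Without cells scoring over 0.25 the log2 change was 1.82 for Mptx2 (edgeR adjusted p = 0.151) and 1.16 for Zg16 (edgeR adjusted p = 0.513), and Mptx2 then had 298 and 158 CPM in 2D and 62.1 and 72.5 CPM in 0D.

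Since fewer than 10 genes passed in each direction, the next smallest p-values filled the lists to 10, and these did not pass. The others higher in 2D were Reg4, Defa22, Ccl6, Defa21, Tent5a, Phip, Lyz1 and Defa24, with edgeR adjusted p-values from 0.0784 to 0.279. Of these, the defensins and lysozyme are Paneth cell products. The others lower in 2D were Dmbt1, Mki67, Prap1, S100a10, Cox5a, Ndufs8 and Tomm5, with edgeR adjusted p-values from 0.129 to 0.279. Mki67, a marker of dividing cells, had 1 and 1 UMIs in 2D and 14 and 13 in 0D, of which 13 in 0D-1 were in the cell of 33106 UMIs. Dmbt1 had 4 and 1 UMIs in 2D-1 and 2D-2 and 15 and 116 in 0D-1 and 0D-2. Reg4, a secreted lectin of endocrine and goblet cells, had 371 and 998 CPM in 2D and 52.8 and 123 CPM in 0D.

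**Figure D4:**
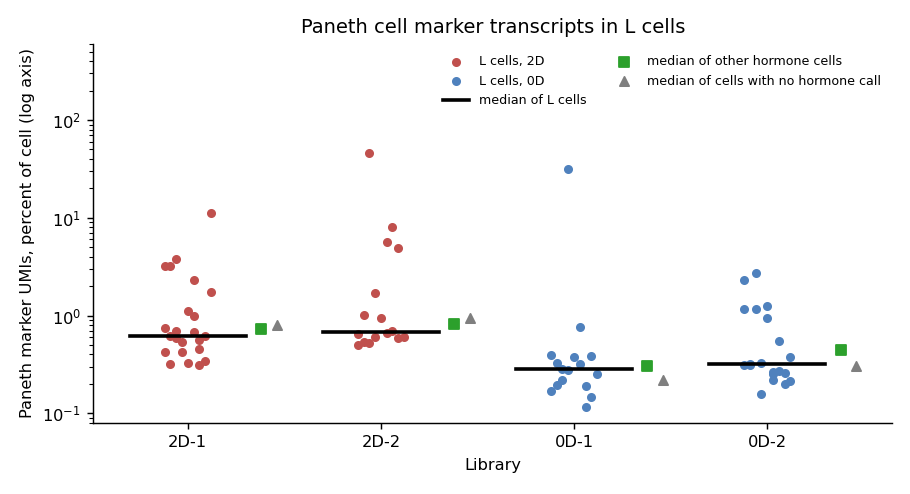
Share of each L cell's UMIs that came from 12 Paneth cell marker genes, on a log axis by library, with the median of L cells (bars) and the medians of other hormone cells (squares) and of cells with no hormone call (triangles). Medians of all 3 kinds of cell are higher in the 2D libraries, and 1 cell in 2D-2 reaches 46.4%.

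Paneth cell markers had higher values in the 2D L cells. All 11 tested members were higher at an unadjusted edgeR p under 0.05, Mptx2 passed after adjustment, and the median log2 change was 2.93, against -0.0017 over all tested genes. Their summed level was 11187 and 112191 CPM in L cells of 2D-1 and 2D-2 and 8920 and 4454 CPM in those of 0D-1 and 0D-2. In 2D-2, 1 L cell of 17893 UMIs and a doublet score of 0.332 held 87.9% of these UMIs. Without the 5 L cells in which the list exceeded 5% of UMIs, the sums were 9839 and 13223 CPM in 2D and 2594 and 4454 CPM in 0D. Without cells of doublet score over 0.25 the sums overlapped, at 11528 and 12016 CPM in 2D and 11976 and 4454 CPM in 0D. That limit kept 1 cell of 0D-1 with 2289 UMIs, 31.7% of them from the list, and a doublet score of 0.033. It held 71.5% of the Paneth marker UMIs in the L cells of 0D-1 and had 0 UMIs of Pyy, Sct and Chgb. The median L cell had 0.621% and 0.682% of its UMIs from the list in 2D and 0.281% and 0.318% in 0D. Cells with no hormone call had medians of 0.794% and 0.947% in 2D and 0.219% and 0.308% in 0D, and other hormone cells 0.728% and 0.817% in 2D and 0.302% and 0.449% in 0D. Medians of all 3 classes were higher in both 2D libraries than in both 0D libraries, and a Defa24 UMI was found in 6695 of 6696 and 7610 of 7613 cells with no hormone call in 2D and in 7375 of 7381 and 6884 of 6889 in 0D. Goblet cell markers had 4 of 8 tested members higher at an unadjusted p under 0.05 (Zg16, Muc2, Spink4 and Fcgbp), against 5.04% of all tested genes, and Zg16 passed after adjustment. Their sums were 10206 and 12318 CPM in 2D and 11286 and 2423 CPM in 0D. The part of this marker RNA in the other results was not tested.

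Genes of nuclear-encoded oxidative phosphorylation were mostly lower in the 2D L cells. All 28 list members were tested, 27 had a log2 change below 0 against 50.2% of all genes, and in 24 both 2D libraries lay below both 0D libraries, which was so for 23.5% of all genes. Their median log2 change was -0.33. At an unadjusted edgeR p under 0.05, 6 were lower (Cox5a, Ndufa4, Cox7b, Cox7a2, Ndufa5 and Ndufv2), and 0 passed after adjustment by edgeR or DESeq2. Cox5a, a subunit of cytochrome c oxidase, had 272 and 261 CPM in 2D and 633 and 493 CPM in 0D, of which 65.3% in 0D-1 lay in the cell of 33106 UMIs. The list summed to 11134 and 11178 CPM in L cells of 2D and 14567 and 15349 CPM in those of 0D. All other cells had 17823 and 16041 CPM in 2D and 22477 and 22265 CPM in 0D, and there 28 of the 28 genes had both 2D libraries below both 0D libraries. Other hormone cells had 13439 and 15177 CPM in 2D and 15966 and 15882 CPM in 0D, and 16 of the 28 genes did so there. The median log2 ratio of the 28 genes, with a prior of 10 CPM, was -0.40 in L cells, -0.14 in other hormone cells and -0.41 in all other cells. Over 2422 genes these medians were -0.08, -0.0051 and -0.09 in the same order. The 23.5% is for L cells, and the share of all genes in the other classes is not given here. Of the mitochondrially encoded genes 6 of 11 tested were above 0 and 5 below.

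**Figure D5:**
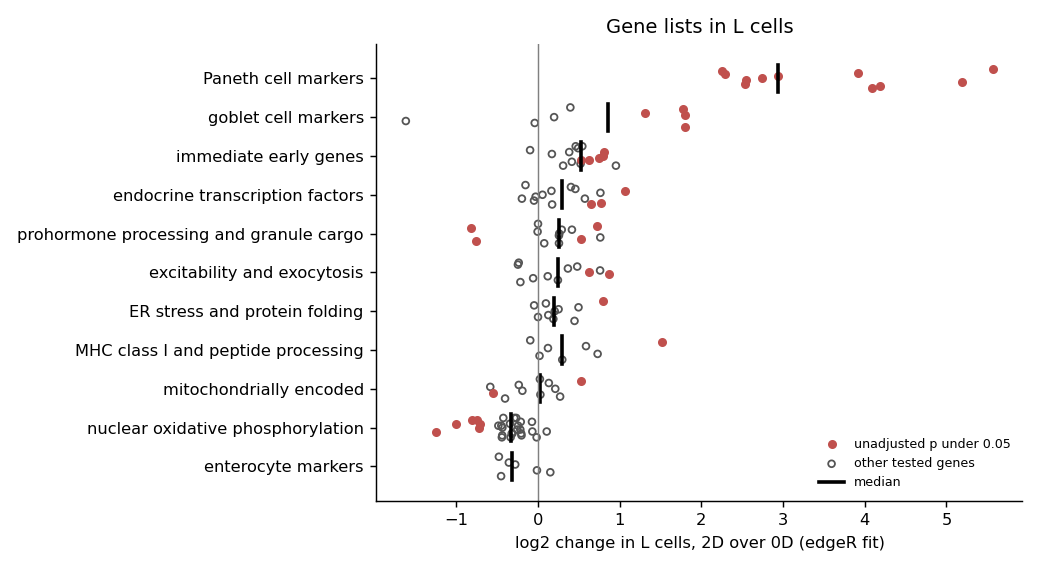
Log2 change of each tested gene in 11 gene lists in L cells, 2D over 0D, from the edgeR fit, with black bars at list medians and filled points at an unadjusted p under 0.05. Paneth cell markers lie on the right with a median of 2.93, and oxidative phosphorylation genes mostly lie left of 0 with a median of -0.33.

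Immediate early genes are switched on within minutes of a stimulus or of handling. Of 15 tested, 14 were above 0, against 49.8% of all tested genes, with a median log2 change of 0.52. At an unadjusted edgeR p under 0.05, 5 were higher (Fosb, Klf6, Btg2, Dusp1 and Jun), against 5.04% of all tested genes. After adjustment by edgeR or DESeq2, 0 passed. Fosb had 617 and 594 CPM in 2D and 334 and 392 CPM in 0D (log2 change 0.81 ± 0.24, edgeR adjusted p = 0.286). In 5 of the 15 both 2D libraries lay above both 0D libraries, against 15.6% of all genes. L cells had 13926 and 10857 CPM of these transcripts in 2D and 10125 and 8530 CPM in 0D. Other hormone cells had 6112 and 7719 CPM in 2D and 5343 and 6244 CPM in 0D, with overlap. All other cells had 3261 and 5381 CPM in 2D and 3666 and 3832 CPM in 0D, also with overlap.

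Among genes of the secretory granule, Chgb and Chga, which encode chromogranins that pack hormones, were higher in 2D before adjustment, and Resp18 and Scg3 were lower. Chgb had 8535 and 7246 CPM in 2D and 5656 and 4425 CPM in 0D (log2 change 0.72 ± 0.21, edgeR adjusted p = 0.286). Resp18 had 192 and 190 CPM in 2D and 413 and 297 CPM in 0D (log2 change -0.82 ± 0.29, edgeR adjusted p = 0.393). The convertase gene Pcsk1 had 424 and 344 CPM in 2D and 317 and 450 CPM in 0D, with overlap. The median of the 13 tested genes was 0.26. Of 14 tested endocrine transcription factors, 10 were above 0, against 49.8% of all tested genes, and Neurod1, Sox4 and St18 had an unadjusted edgeR p under 0.05. Neurod1 had 1280 and 879 CPM in 2D and 756 and 689 CPM in 0D (log2 change 0.65 ± 0.23, edgeR adjusted p = 0.400). Etv1 had 988 and 927 CPM in 2D and 1082 and 863 CPM in 0D. None of the genes in both lists passed after adjustment by edgeR or DESeq2, and at an unadjusted edgeR p under 0.05 the counts were 4 of 13 and 3 of 14, against 8.88% of all tested genes.

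The remaining lists had few testable members in sums of this depth, and their counts stand beside 49.8% of all tested genes above 0 and 5.04% higher at an unadjusted edgeR p under 0.05. Exocytosis and excitability genes had 11 tested, 7 above 0, with Syt13 and Celf3 at an unadjusted edgeR p under 0.05. Protein-folding genes had 9 of 10 above 0, and Herpud1 reached that level. Heat shock genes had 6 of 8 above 0, led by the chaperone gene Hspa8 with 1724 and 1485 CPM in 2D and 836 and 1023 CPM in 0D (edgeR adjusted p = 0.279). Of 13 MHC class I genes 7 were tested, 6 above 0, with H2-T23 at an unadjusted p under 0.05, but the list summed to 3024 and 1366 CPM in 2D and 1671 and 1886 CPM in 0D, with overlap. Of the interferon list, 3 genes were tested, and Usp18 had 179 and 95 CPM in 2D and 44.0 and 43.5 CPM in 0D (edgeR adjusted p = 0.279). The list of 22 interferon genes summed to 2845 and 784 CPM in L cells of 2D-1 and 2D-2 and to 713 and 769 CPM in those of 0D, and to 2448 and 531 CPM in all other cells of 2D and 594 and 637 CPM in those of 0D, so 2D-1 alone stood far above the rest. Irf7, an interferon regulator too low to be tested between groups in L cells alone, had 44 and 5 UMIs in 2D-1 and 2D-2. It had 1 and 3 UMIs in 0D. The glucocorticoid list had 5 tested and 5 above 0, with Dusp1 alone at an unadjusted p under 0.05, a gene already counted among the immediate early genes. The circadian list had Clock tested (log2 change -0.03, edgeR adjusted p = 1.00), and MHC class II had Cd74 and H2-Ab1, whose groups overlapped. For the BMP list Id2, and for the Notch list Btg2, reached an unadjusted p under 0.05 among 2 and 3 tested genes. Btg2 was also counted among the immediate early genes. Enterochromaffin, enterocyte and stem cell markers had 4, 6 and 1 tested, 0 of them at that level by edgeR. S phase, tuft and immune lists had 0 genes tested, and of dividing-cell markers Mki67 was the 1 tested.

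The last comparison asked whether the change in L cells differed from the change in other cells of the same libraries, as a class-by-group term. Its count filter took the sums of both classes together, so a gene could enter through the counts of the other cells alone. In L cells by themselves 2422 genes were tested. Against other hormone cells 5 of 9605 genes passed by edgeR (0.0521%), of which Nts and Gip belonged to the rule and are not read. The other three were Reg4 (interaction of 2.81 ± 0.53, edgeR adjusted p = 0.0107), Ccl9 (adjusted p = 0.0157) and Dmbt1 (interaction of -3.55 ± 0.63, adjusted p = 0.00722). Reg4 had 727 and 355 CPM in other hormone cells of 2D and 654 and 424 CPM in those of 0D, with overlap, and 1 L cell held 78.6% of its UMIs in 2D-1. The 29 Ccl9 UMIs of 2D-2 all lay in 1 L cell with a doublet score of 0.382, and 0D-1 had 0 Ccl9 UMIs. Leaving out 1 library gave 30 and 9 genes for the 2D libraries and 13 and 20 for the 0D libraries. Each of these genes lost its call in some of those fits, Reg4 without 2D-2, Ccl9 without 2D-2 or 0D-1, and Dmbt1 without 0D-2. Pyy had an interaction of -0.63 and Chgb of 0.58, both with an edgeR adjusted p of 1.00.

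Against all other cells 27 of 14282 genes passed (0.189%), 20 with a higher and 7 with a lower change in L cells. That share is again over genes that could enter through the counts of the other cells alone. The 20 held Paneth cell genes (Defa22, Defa21, Ang4, Lyz1 and others) and the goblet cell genes Zg16 and Muc2, with Nts, which belongs to the rule and is not read. Among the 7, Dmbt1, Mki67, Resp18, Ankrd13a and Tmem205 had the smallest p. In L cells Ankrd13a had 0 and 0 UMIs in 2D and 11 and 5 in 0D. Tmem205 had 1 and 2 UMIs in 2D and 10 and 16 in 0D. Resp18, a granule protein of endocrine cells, had 6.19 and 5.84 CPM in all other cells of 2D and 3.58 and 4.47 CPM in those of 0D, against 192 and 190 CPM in L cells of 2D and 413 and 297 CPM in those of 0D (interaction of -1.50 ± 0.35, edgeR adjusted p = 0.00996). Those other cells include the hormone cells led by other hormones, whose share was higher in 2D, and their part in this difference was not tested. Without cells of doublet score over 0.25, 4 genes passed (Dmbt1, Nts, Reg4 and Resp18). Leaving out 1 library gave 32 and 7 genes for the 2D libraries and 8 and 12 for the 0D libraries. Resp18 passed without 0D-2 but not without 2D-1, 2D-2 or 0D-1.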

How the data were processed

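The data were 4 single-cell RNA-seq libraries of mouse small-intestinal crypts, 2 per group. The authors deposited raw UMI counts per gene and cell barcode. The submitters' processing notes name Cell Ranger 2.1.1 and mm10, whereas the file headers name cellranger 7.0.0, and intron counting and the annotation release are not stated. Barcodes passed with 500 or more genes and no more than 20% of UMIs from mitochondrial genes. L cells were chosen by the rule in the opening, and 1 cell of 2D-2 with tied hormones was left out. The members and gene lists were chosen with earlier results of these data known.

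UMIs were summed per library and cell class, since cells are not replicates. Groups were compared with edgeR's quasi-likelihood test (filterByExpr, TMM, Benjamini-Hochberg, threshold 0.05), and class differences with a class-by-group term. Genes of the rule were not tested between groups. Shares were compared with exact permutation over libraries, and intervals are exact binomial (95%), covering counting error only. Scripts were tested on simulated data. Tools were Python 3.11.15, scanpy 1.11.5, scipy 1.17.1 and the R packages edgeR 4.0.16 and DESeq2 1.42.0.

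Scrublet scores (through scanpy) gave 581 and 0 automatic calls in 2D-1 and 2D-2 and 598 and 356 in 0D-1 and 0D-2. With 0 calls the caller had not worked in 2D-2, so no cell was removed and a score over 0.25 was used as an alternative.

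Named genes were the peptide hormones, the 10 genes higher and 10 lower with the smallest p (past the threshold first, at least 20 CPM), up to 4 tested members per list, the 5 smallest p of each sign per interaction, the 15 leading genes per description (at least 50 CPM, prior 10 CPM) and the 10 genes most like Gcg. Egr3, Vim and others among the leading genes entered by that rule, while Gpr119, Irf7, Pcsk1 and Sis were described beyond it after their values were seen. Of the list symbols 2, Mx1 and Mx2, matched no feature. Promoter sequences are from RefSeq, GRCm38.p6. Alternatives were DESeq2, RLE size factors, no count filter, other Gcg, mitochondrial, doublet and Neurog3 limits, each library left out, the replicate number as a block and, added after seeing the data, thinning to 5000 UMIs, removing Paneth-rich cells and counting all Gcg cells.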

Additional observations from a re-analysis of the deposited data

Results flagged for a closer look

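Genes whose change between 2D and 0D differed between L cells and other cells of the same libraries are given with edgeR adjusted p-values of the class-by-group term. Against other hormone cells these were Reg4 (adjusted p = 0.0107), Ccl9 (0.0157) and Dmbt1 (0.00722). Against all other cells, L cells had a higher change of Defa22 (adjusted p = 1.55e-11), Defa21 (2.80e-09), Ccl9 (1.61e-06), Ang4 (7.61e-06) and Reg4 (4.36e-05).

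The lower changes against all other cells were those of Dmbt1 (edgeR adjusted p = 4.20e-10), Mki67 (0.00924), Resp18 (0.00996), Ankrd13a (0.0127) and Tmem205 (0.0233). Ankrd13a had 0 and 0 CPM in L cells of 2D and 96.8 and 36.3 CPM in those of 0D, so no fold is given. Defa22 had 723 and 12175 CPM in L cells of 2D and 141 and 160 CPM in those of 0D. In 2D-2, 1 cell with a doublet score of 0.332 held 95.7% of the Defa22 UMIs, 97.6% of those of Defa21 and 95.2% of those of Ang4. None of these 3 genes passed against all other cells without Paneth-rich L cells or without doublet scores over 0.25. Dmbt1 had 26.5 and 11.9 CPM in L cells of 2D and 132 and 841 CPM in those of 0D, and 1 cell held 50% of its UMIs in 0D-2.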

How the results depend on the processing

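The count of genes that differed between 2D and 0D in L cells, 5 by edgeR, was 2 with DESeq2, 58 with no count filter, 20 with Gcg at 10 CP10K or more, 0 with Gcg at 50 CP10K or more (233 at an unadjusted p under 0.05, and 2 by DESeq2 at the original limit), 1 at 10% mitochondrial UMIs, 1 with cells thinned to 5000 UMIs and 3 without doublet scores over 0.25, and 34 to 57 with 1 library left out. Against other hormone cells, 5 genes became 30 with Gcg at 10 CP10K, 28 at 50 CP10K, 16 without Paneth-rich cells, 9 at 10% mitochondrial UMIs, 10 without high doublet scores, 23 with no filter and 17 with no Neurog3 limit, and 9 to 30 with 1 library left out. Against all other cells, 27 became 14 without Paneth-rich cells and 4 without high doublet scores, and 7 to 32 with 1 library left out. The cause was not tested, and each fit with 1 library left out holds a single library in 1 group. The log2 change of Pyy was 0.77 without 2D-1 and ranged from 0.0922 to 0.882 with 1 library left out. The L cell share of cells kept, 0.0182 percentage points higher in 2D, was reversed at -0.0166 without 0D-1 and -0.0454 without 2D-1, and reached 0.0817 without 2D-2.

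With the replicate block 1 gene passed, Reg4, and 0 of the 5 were shared. Deviations of same-numbered libraries had a correlation of -0.0994, and the labels give the numbers no meaning, so the samples share only a number. With 16 to 23 L cells per library, single cells weigh on low genes, and 2422 of 32285 genes could be tested between groups in L cells alone.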
